A study of Mus musculus with 4 samples.

Results

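The genes described here are the enzymes that make cholesterol and long-chain fatty acids, together with the proteins that switch those enzymes on and off. They were taken from a fixed list of 30 gene symbols, and each was represented by its brightest probe set, the one with the highest mean over all arrays. Of the 30, 29 had a probe set under a single symbol, out of 18193 named genes in all, and Acat2 was not analysed here. The mean of each of the 29 was not below 5.83 on the log2 scale, which was the median over all probe sets.

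Expression was measured in endothelial cells sorted from B16 melanoma, a pigmented mouse tumor line that grows in C57BL/6 mice. The tumors grew for 2 weeks in a multi-color Cre reporter mouse, in which tamoxifen marks cells and their offspring with 1 of several colors, and the color is then used as a clone label. CD45-CD31+CD144+ cells were sorted, and from each of tumor A and tumor B the most frequent clone (Clonal Expansion, called expansion below) and the least frequent clone (Clonal Extinction, called extinction) each gave 1 array. That makes 4 arrays, 2 per clone class and 2 per tumor, with strain, reporter and tamoxifen shared by all groups, so no array is free of the label or the tumor. The sources used here give neither the age of the mice nor the promoter that drives Cre, and cells of 1 color can stem from more than 1 founder.

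Cholesterol is built from acetyl-CoA by way of mevalonate, the isoprenoid diphosphates, squalene and lanosterol. Fatty acids are built from the same acetyl-CoA by acetyl-CoA carboxylase and fatty acid synthase and are then elongated and desaturated. Most of these genes are targets of the SREBP transcription factors, which stay in the endoplasmic reticulum with SCAP and INSIG while sterols are plentiful and move to the nucleus when sterols run low. Dividing cells, tumor cells among them, need both lipid classes for new membranes, while endothelial cells can also take them up from blood lipoproteins.

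The promoters of these genes are known for short elements bound by SREBP and its partners. A RefSeq table of promoters (build GRCm38.p6) held windows for 24 of the 30 symbols; Fdps, Fdft1, Sqle, Stard4, Scd1 and Scd2 had none. The 250 bases before each start site were searched on both strands for 4 motifs. The sterol regulatory element core TCACNCCAC was found in 1 of 32 member windows, that of Hmgcs1, and in 1.05% of all 32851 windows. The palindromic E-box CACGTG was in 5 of 32 windows and in 6.02% of all. The CCAAT box, read as CCAAT or ATTGG, was in 62.5% of member windows and in 33.8% of all. The GC box, read as GGGCGG or CCGCCC, was in 71.9% of member windows and in 32.7% of all. A match is a description of the letters and not a measured binding site.

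The Hmgcs1 stretch is shown because it alone held the sterol regulatory element core, which is in capitals and lies 137 to 129 bases before the start site (chr13:119690184-119690252, plus strand).
Hmgcs1: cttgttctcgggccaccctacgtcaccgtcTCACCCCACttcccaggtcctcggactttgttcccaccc

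The next 7 stretches are the 120 bases before the start site of 4 members at least 2-fold apart between clones in both tumors and of 3 members with a range under 1 on the log2 scale. They are a selection, and other members of both kinds are not shown. Capitals mark CCAAT and GC boxes on either strand. They lie at chr8:122443423-122443542 (Mvd, minus), chr10:76531485-76531604 (Lss, plus), chr5:4104698-4104817 (Cyp51, minus), chr11:120824548-120824667 (Fasn, minus), chr5:114444149-114444268 (Mvk, plus), chr13:8885486-8885605 (Idi1, plus) and chrX:8193513-8193632 (Ebp, minus).
Mvd: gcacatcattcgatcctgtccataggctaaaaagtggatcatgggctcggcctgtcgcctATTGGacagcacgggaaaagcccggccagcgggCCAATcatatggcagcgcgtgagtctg
Lss: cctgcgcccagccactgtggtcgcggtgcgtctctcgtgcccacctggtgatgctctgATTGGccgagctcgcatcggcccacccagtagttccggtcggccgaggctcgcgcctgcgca
Cyp51: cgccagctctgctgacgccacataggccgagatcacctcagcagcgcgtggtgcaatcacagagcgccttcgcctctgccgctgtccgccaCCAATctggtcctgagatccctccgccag
Fasn: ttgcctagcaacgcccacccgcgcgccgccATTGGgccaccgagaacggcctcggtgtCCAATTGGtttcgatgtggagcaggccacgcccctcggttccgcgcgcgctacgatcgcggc
Mvk: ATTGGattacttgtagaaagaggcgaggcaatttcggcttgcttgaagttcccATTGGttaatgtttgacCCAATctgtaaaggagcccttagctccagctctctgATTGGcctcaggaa
Idi1: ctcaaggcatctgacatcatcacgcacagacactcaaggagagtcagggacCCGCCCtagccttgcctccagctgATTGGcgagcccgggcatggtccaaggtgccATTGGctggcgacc
Ebp: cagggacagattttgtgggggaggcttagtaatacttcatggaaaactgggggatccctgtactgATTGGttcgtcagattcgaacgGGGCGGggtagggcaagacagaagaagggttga

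In the Fasn stretch the CCAAT boxes of both strands overlap. Within the full 250 bases, the box was present in 7 of the 8 members with a window that were at least 2-fold apart in both tumors and in 12 of the 15 other measured members. For the GC box these counts were 6 of 8 and 13 of 15. Among members whose stretch is not shown, Acaca, at least 2-fold apart in both tumors, held neither box. Msmo1, also 2-fold apart, held 3 CCAAT and 2 GC boxes, and Acly, with a range under 1, held 0 and 4.

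The arrays differed in which cells' genes they carried, and this bears on every value that follows. All levels below are log2 RMA values and are given in 1 order of arrays, first expansion and extinction of tumor A, then expansion and extinction of tumor B. The 13 measured melanoma genes (of 14 listed) averaged 12.04, 7.31, 6.27 and 11.23, and the 20 endothelial genes averaged 8.31, 10.49, 10.93 and 9.26. Expansion A and extinction B were thus the arrays with bright melanoma genes and dim endothelial genes, although all 4 carry the same sorting label. Clone directions follow the labels as deposited, and whether arrays were exchanged was not tested. The sorting marker CD144 (Cdh5) was at 8.69, 11.46, 11.51 and 9.80. No marker was listed at 0. Fewer cells of a type and less RNA per cell cannot be told apart in such pooled samples.

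Within tumor A, nearly all genes of sterol and fatty acid synthesis were brighter in the expansion clone. Within tumor B they were brighter in the extinction clone. The median log2 difference, expansion minus extinction, over the 29 members was 1.25 (tumor A) and -0.84 (tumor B), against -0.04 and 0.07 over all named genes. With 1 array per class and tumor these differences have no replicate check and were not tested. In tumor A, 16 members were at least 2-fold higher in expansion and 0 were at least 2-fold lower, where 5.89% and 10.4% of all named genes were. In tumor B, 13 were at least 2-fold lower and 0 at least 2-fold higher, where 4.77% and 9.68% of all named genes were. Opposite signs, higher in A and lower in B, were seen in 26 members and in 28.6% of all named genes. Of the other 3, Stard4 and Scd1 were higher in expansion in both tumors (17.3% of all named genes) and Mvk was lower in both (14.1%). At least 2-fold apart in opposite directions, higher in A and lower in B, were 11 members and 3.14% of all named genes; none was 2-fold higher or 2-fold lower in both tumors (0.011% and 0.077% of all). With 1.5-fold in place of 2-fold, 20 members were lower in expansion of tumor B (10.6% of all named genes), and the same 20 were also higher in tumor A (6.73%). The plot of clone differences shows where they lie. The melanoma genes ran in the same directions, with median differences of 4.68 and -5.34, and all 13 exceeded 2-fold in both tumors. Their part in the lipid gene differences was not tested.

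**Figure D1:**
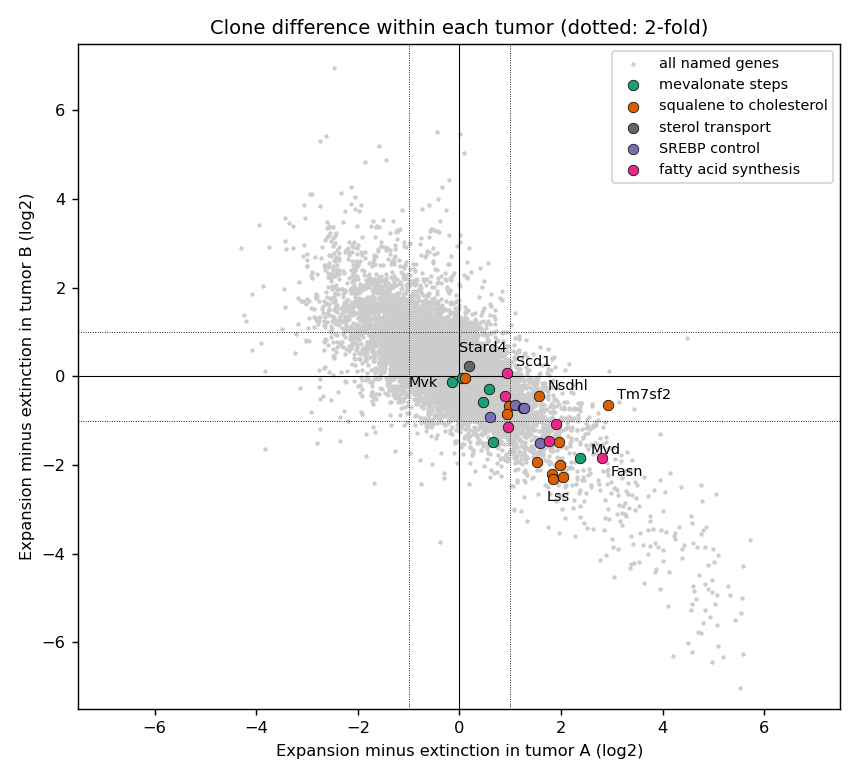
Each point is 1 gene, with its log2 difference between expansion and extinction in tumor A on the x axis and in tumor B on the y axis; grey points are all 18193 named genes, coloured points the 29 members by role, and dotted lines mark 2-fold. The members lie to the right of 0 and below 0, 11 of them beyond 2-fold in both tumors, except Mvk, Stard4 and Scd1.

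Early steps of the pathway, from acetyl-CoA to the isoprenoid diphosphates, differed less than later ones. The median differences of the 6 measured genes were 0.52 (tumor A) and -0.42 (tumor B), and 1 of them, Mvd, was at least 2-fold apart in both. Mvd encodes the decarboxylase that turns mevalonate diphosphate into isopentenyl diphosphate. Its level was 9.74, 7.37, 7.21 and 9.04, which is 5.17-fold higher in expansion of tumor A and 3.57-fold higher in extinction of tumor B. Expansion A and extinction B were both high and the other arrays low, so that the clone classes overlapped. Fdps, the farnesyl diphosphate synthase, was at 8.41, 7.75, 6.54 and 8.02. Expansion B was its low array, more than 2-fold under extinction B.

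The other genes of this stretch had ranges under 1 on the log2 scale. Idi1, the isomerase of isopentenyl diphosphate, was at 11.06, 11.01, 10.75 and 10.80. Its range over all arrays was 0.32 on the log2 scale. Hmgcs1, the synthase of HMG-CoA, ranged over 0.70, from 12.77 in expansion B to 13.47 in expansion A, and Pmvk, the phosphomevalonate kinase, over 0.80. Mvk, the mevalonate kinase, was at 7.75, 7.91, 7.12 and 7.24. It was the single member that was lower in expansion in both tumors, by log2 differences of -0.15 and -0.12.

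From squalene to cholesterol the differences were larger. The 11 genes of this stretch had median differences of 1.83 (tumor A) and -1.47 (tumor B). All 11 were higher in A and lower in B (28.6% of all named genes), and 6 were at least 2-fold apart in both (3.14%). Fdft1, which joins farnesyl units into squalene, was at 11.90, 10.07, 9.12 and 11.33. Squalene epoxidase (Sqle), a rate-controlling oxygenase of the pathway, was at 11.51, 9.52, 8.56 and 10.56. Its difference was nearly the same size in the tumors, 1.99 in A and -1.998 in B. Lanosterol synthase (Lss), which closes the sterol rings, was at 9.75, 7.90, 6.85 and 9.17.

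Of the enzymes that act on lanosterol and its products, Cyp51, Msmo1 and Dhcr7 had the array order of Sqle. The demethylase Cyp51 was at 11.37, 9.85, 8.82 and 10.74. The methyl sterol oxidase Msmo1 was at 11.53, 9.57, 8.996 and 10.47. Dhcr7, which makes cholesterol from 7-dehydrocholesterol, was at 11.31, 9.27, 8.36 and 10.64, or 4.10-fold higher in expansion of tumor A and 4.86-fold higher in extinction of tumor B. In each of these genes expansion A was highest, then extinction B, then extinction A, then expansion B.

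Not every late enzyme was 2-fold apart on both sides. Tm7sf2, a sterol C14 reductase, had the largest difference of all members in tumor A, 2.92, but -0.64 in tumor B; it was at 8.83, 5.91, 6.46 and 7.10. Nsdhl, a sterol dehydrogenase of C4 demethylation, differed by 1.56 and -0.43. Hsd17b7, the ketoreductase of the same complex, differed by 0.97 and -0.66, and the desaturase Sc5d by 0.93 and -0.84. Ebp, the sterol isomerase, stayed between 9.71 and 9.90 on all arrays, the narrowest range of any member. Stard4, a carrier that moves sterol between membranes, was at 9.60, 9.40, 9.33 and 9.09 and was higher in expansion in both tumors, by 0.20 and 0.23. Both of its dimmer probe sets were lower in expansion of tumor A, by log2 differences of -0.09 and -0.97.

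**Figure D2:**
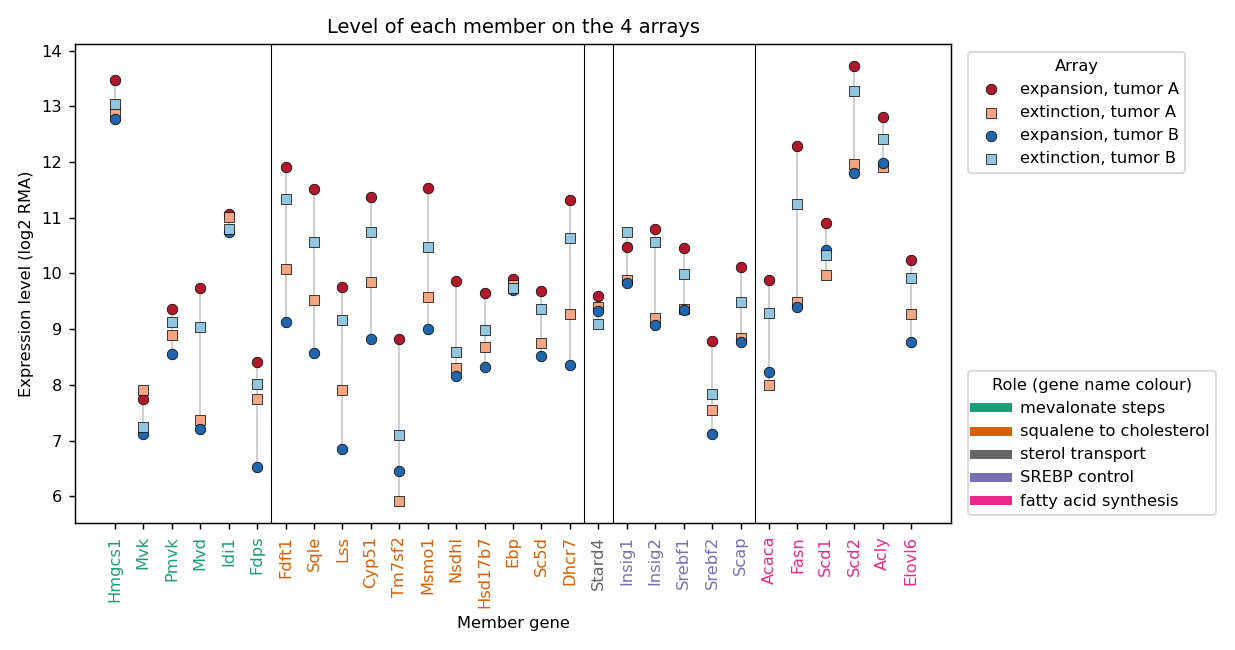
Log2 RMA level (y axis) of each of the 29 members (x axis, grouped by role) on the 4 arrays; circles are expansion, squares extinction, red shades tumor A and blue shades tumor B, and a grey line spans each gene's range. Expansion A was the highest array in 27 members (27.8% of all named genes) and expansion B the lowest in 24 (24.2%), while the ranges of Ebp, Idi1 and Stard4 were 0.18, 0.32 and 0.51; points compare arrays for 1 gene, not genes with each other.

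Genes that control SREBP were also higher in A and lower in B, in 5 of 5 (28.6% of all named genes). Their median differences were 1.25 and -0.71. Insig2, an anchor that holds SCAP in the endoplasmic reticulum, was the one at least 2-fold apart in both. It was at 10.79, 9.19, 9.07 and 10.57, high on the arrays with bright melanoma genes and level on the others. Its 2 other probe sets had differences of 2.12 and 1.34 (tumor A) and of -1.68 and -1.16 (tumor B). Insig1, the related anchor that is itself an SREBP target, was at 10.48, 9.89, 9.82 and 10.75. It was the one member with its highest level in extinction B, 0.27 above expansion A.

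The transcription factor genes differed by about 2-fold in tumor A. Srebf1, whose product acts mainly on fatty acid genes, was at 10.45, 9.36, 9.35 and 9.998, with differences of 1.08 and -0.65. Srebf2, whose product acts mainly on sterol genes, was at 8.79, 7.54, 7.12 and 7.83, with differences of 1.25 and -0.71. The escort protein gene Scap was at 10.12, 8.84, 8.77 and 9.49. All 3 were 2-fold apart in tumor A and under 2-fold in tumor B.

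Of the 6 fatty acid genes, all were brighter in the expansion clone of tumor A and 5 were dimmer in that of tumor B, with medians of 1.36 and -1.10. Fatty acid synthase (Fasn) was at 12.29, 9.48, 9.39 and 11.24. That is 7.003-fold higher in expansion of tumor A and 3.61-fold higher in extinction of tumor B, with the low pair of arrays within 0.09 of each other. Acetyl-CoA carboxylase (Acaca), which supplies malonyl-CoA, was at 9.89, 7.99, 8.22 and 9.29. ATP citrate lyase (Acly), which supplies cytosolic acetyl-CoA, was at 12.81, 11.91, 11.99 and 12.42, a smaller span. The elongase Elovl6 was at 10.23, 9.27, 8.77 and 9.91.

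The stearoyl-CoA desaturases, which put the double bond into stearate and palmitate, differed from each other. Scd2 was at 13.73, 11.97, 11.81 and 13.27, with differences of 1.76 and -1.46. Scd1 was at 10.90, 9.97, 10.41 and 10.33, with differences of 0.94 and 0.08, and both expansion arrays lay above both extinction arrays, though by only 0.08 in tumor B. It was the one member whose clone classes did not overlap, expansion above extinction, where 11.6% of all named genes were so; 0 members and 9.11% of genes were apart the other way. Its dimmer probe set had a difference of -0.94 in tumor B, so that the same sign in both tumors held for the brighter probe set alone. Of the 8 measured adipocyte markers (of 11), 1 was at least 2-fold higher in expansion of tumor B, where 9.68% of all named genes were, and the other 7 were higher by 0.15 to 0.50. That one was Adipoq, the adiponectin gene of fat cells, at 3.78, 3.76, 6.78 and 3.75. Thrsp, a lipogenic gene of fat and liver, was at 5.96, 6.17, 9.19 and 6.004. Both genes were chosen with their values in view. The mean over the 8 markers was 4.82, 4.86, 5.51 and 4.81, and its part in the level of Scd1 was not tested.

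Between the clone classes as a whole, tumor A and tumor B offset each other. The question put by the design is how the most frequent clone differs from the least frequent one across tumors, and for these genes the mean differences were small beside the spread between arrays. Their median was 0.15 on the log2 scale (0.02 over all named genes), and 26 of the 29 were smaller than their own standard error. Tm7sf2, at 1.14 ± 1.02 (SE, n = 2 per class), had the largest. Scd1, at 0.51 ± 0.27 (SE), Stard4, at 0.22 ± 0.21 (SE), and Mvk, at -0.14 ± 0.38 (SE), were the genes with the same sign in both tumors. limma called 0 of the 29 members at an adjusted p under 0.05 (adjusted p = 1 for each), and 0.0% of all 45037 probe sets. At an unadjusted p under 0.05 there were 0 members and 469 probe sets. The median changed with single arrays: it was -0.51 without expansion A and 0.91 without expansion B, -0.20 without extinction A and 0.44 without extinction B. From extinction A and expansion B alone, the arrays with dim melanoma genes, it was -0.17. That pair holds 1 array per tumor, so clone class and tumor cannot be told apart in it.

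Set against tumor A, tumor B had lower means for 28 of the 29 members, Insig1 being the other. The share of all named genes with a lower mean in tumor B was 54.3%, with a median of -0.02, while the members' median was -0.41. The mean difference reached -0.95 ± 1.08 (SE, n = 2 per tumor) for Sqle, -0.84 ± 0.94 (SE) for Cyp51 and -0.82 ± 0.94 (SE) for Msmo1. None was called by limma (0 of 29, adjusted p = 1 for each; 0.0% of all probe sets), and 1 member, Mvk, had an unadjusted p under 0.05 (0.0202), as did 648 probe sets. Without expansion A the members' median was 0.15, without expansion B 0.05, without extinction A -0.9996 and without extinction B -0.91. Its sign turned when either expansion array was left out. With any 1 array left out, the tumors differ in their share of arrays with bright melanoma genes. Tumor and melanoma signal cannot be told apart in these medians.

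Since clone class and tumor cross, the tumors can also be set side by side for the arrays nearer to each other in melanoma signal, though not equal in it. Among the arrays with bright melanoma genes, extinction B lay below expansion A in 28 members, with a median of -0.57, where 54.9% of all named genes did. Among those with dim melanoma genes, expansion B lay below extinction A in 25 members, with a median of -0.17, where 50.9% did. Both held for 24 members and for 29.4% of all named genes. Of the late sterol enzymes, Sqle differed by -0.95 and -0.96, Cyp51 by -0.64 and -1.03, Lss by -0.58 and -1.05 and Dhcr7 by -0.67 and -0.91. Other late enzymes were further apart between the pairs, with -1.27 and -0.14 for Nsdhl, -1.07 and -0.58 for Msmo1 and -1.73 and 0.55 for Tm7sf2. Of the fatty acid genes, Fasn differed by -1.05 and -0.09, Scd2 by -0.46 and -0.16 and Elovl6 by -0.32 and -0.50, while Acaca and Scd1 were higher in expansion B than in extinction A, by 0.23 and 0.44. The full order, expansion A above extinction B above extinction A above expansion B, was found in 20 members and in 8.49% of all named genes. It was also found in 12 of the 13 melanoma genes, whose medians in these pairs were -0.75 and -0.96. Each pair holds 1 array per tumor and mixes tumor with clone class and with melanoma signal. Neither pair was tested, and these parts cannot be told apart.

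A few members differed between the tumors without overlap. These were Mvk, Idi1, Ebp and Stard4, 4 members (13.9% of all named genes were lower in tumor B without overlap), and 0 were higher without overlap (9.34% of all). The number of members is near that share. All 4 differed little between clones, which follows in part from the rule, since no overlap between tumors favours small clone differences. For Mvk, at 7.75 and 7.91 (tumor A) against 7.12 and 7.24 (tumor B), the mean difference was -0.65 ± 0.16 (SE, n = 2 per tumor). It was -0.26 ± 0.14 (SE) for Idi1, -0.12 ± 0.15 (SE) for Ebp and -0.29 ± 0.18 (SE) for Stard4. For Mvk the dimmer probe set, at 6.77, 6.97, 6.83 and 7.002, overlapped between the tumors. It brought the mean of both down to -0.30. Both dimmer probe sets of Stard4 overlapped between the tumors too, while that of Idi1 did not.

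**Figure D3:**
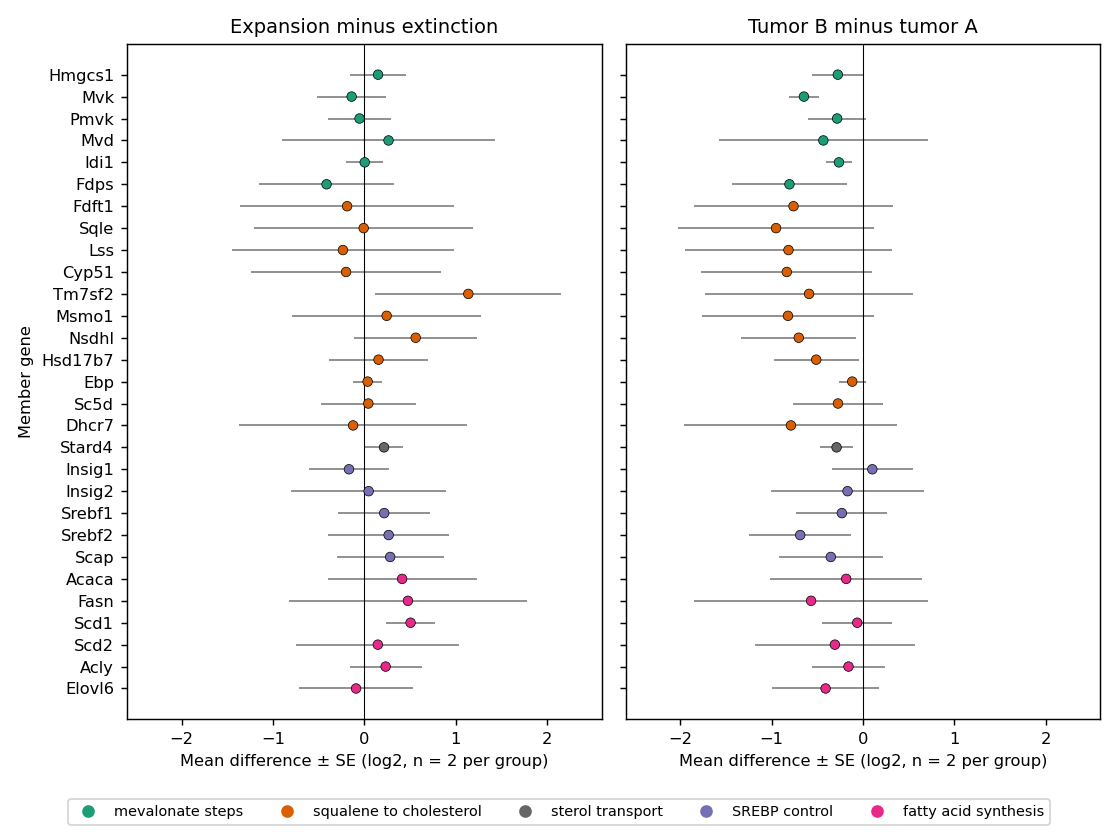
Mean log2 difference of each member (y axis, coloured by role) between clone classes (left) and between tumors (right), with bars of 1 standard error from limma and n = 2 arrays per group. The bars on the left cross 0 in 26 of 29 genes; on the right 28 of 29 means lie below 0, most with bars that cross it.

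Other genes of lipid handling were taken from a list of 35, of which 29 had a probe set here and 6 were not analysed. None passed limma's test in either direction for clone class or tumor. They did not move as one: 12 were higher in A and lower in B and 14 the reverse (28.6% and 39.5% of all named genes), and their median differences were 0.03 and 0.09. The largest was Acsl3, an acyl-CoA synthetase that activates fatty acids, at 11.36, 8.17, 7.87 and 10.15, in the array order of Sqle and Dhcr7. The sterol exporters ran the other way. Abca1, which loads cholesterol onto apolipoprotein A-I, was at 8.24, 10.24, 10.73 and 9.04, and Abcg1, which passes it to HDL, at 8.12, 10.01, 9.79 and 8.73. Both were lowest in expansion A, and within each tumor the expansion and extinction clones were more than 2-fold apart, lower in A and higher in B. Abca1 and Abcg1 are targets of the liver X receptors, which respond to oxysterols; the receptor gene Nr1h3 stayed between 5.33 and 5.48, dimmer than most probe sets. The endothelial list, with medians of -2.43 and 1.66, ran in the direction of the exporters. So did the medians of the fibroblast list, -1.10 and 1.08, and of the pericyte list, -1.08 and 0.56. The part of these lists in the levels of the exporters was not tested. Keratinocyte and sebocyte markers averaged between 4.95 and 5.24 on the 4 arrays, and leukocyte markers between 6.14 and 6.49, while single members of both lists differed more. The log2 difference of the epidermal keratin Krt10, expansion minus extinction, was -1.33 (tumor A) and 2.03 (tumor B). Further, 2 of 7 leukocyte markers, Csf1r and Cd53, were at least 2-fold lower in expansion of tumor A (10.4% of all named genes were). Fibroblast markers averaged between 11.71 and 13.32 and were lowest in expansion A, and pericyte markers between 10.31 and 11.49.

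**Figure D4:**
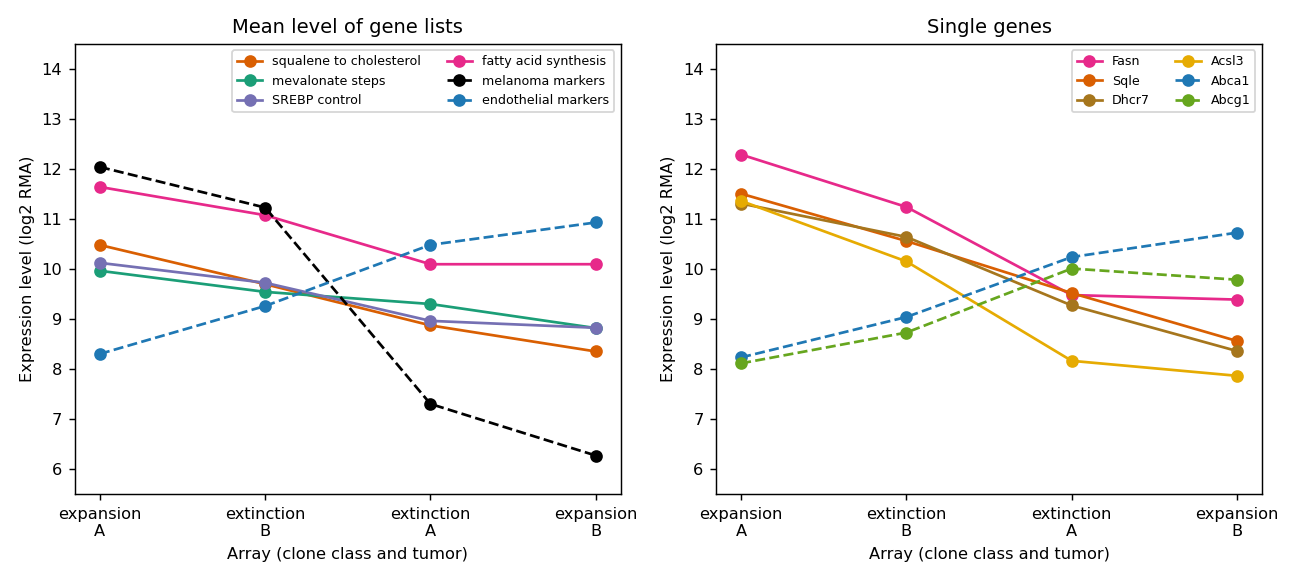
Left, mean log2 RMA level of the genes of 4 roles and of the melanoma and endothelial markers on the 4 arrays. The x axis gives clone class and tumor, ordered from bright to dim melanoma genes. Sterol transport, with Stard4 as its 1 gene, is not drawn, nor are the fibroblast and pericyte markers. Right, 6 single genes on the same arrays. The 4 roles and Acsl3 are higher on the left arrays, like the melanoma markers, while Abca1 and Abcg1 are higher on the right arrays, like the endothelial markers; each line is to be compared with itself across arrays, not with other lines.

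Of the 29 members, 20 had more than 1 probe set. Dimmer probe sets with a mean of 5.83 or more had the chosen probe set's signs in both tumors in 16 of 29 cases. The members with a dimmer probe set of another sign combination were Hmgcs1, Idi1, Fdft1, Sc5d, Stard4, Scd1 and Acly at that level, and Hsd17b7 below it. For the 11 members at least 2-fold apart in both tumors, 10 of 14 other probe sets were so too. Lss was at 8.34, 4.86, 4.16 and 6.49 by its dimmest probe set, a difference of 3.48 in tumor A against 1.85 by the brightest.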

How the data were processed

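The deposited values are log2 expression levels. The authors made them with RMA from the affy package, as the submitters' processing notes say, with no version named there. RNA was TRIzol-extracted and amplified in 2 rounds, per the labels' protocols, which can widen differences between small samples. RMA normalizes arrays together, so a level depends on the other arrays.

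Of 45101 probe sets, 64 controls were left out. Symbols came from the platform annotation: 34945 probe sets had 1, 932 several and 9160 none; gene IDs changed 0 symbols. The test was limma's moderated test (version 3.58.1, R 4.3.3; lmFit and eBayes, two-sided) over 45037 probe sets with Benjamini-Hochberg adjustment and 2 residual degrees of freedom. Titles call the arrays biological replicates. The step was tested on simulated data with a spread drawn from limma's own fit. At log2 differences of 1, 2, 3 and 4, it called 0 of 50 probe sets each, for clone class and for tumor. With the spread divided by 10, it called between 43 and 50 of 50. The absence of calls on the real arrays thus cannot show that differences of such sizes are absent. Depth does not apply to arrays, whose number limits the precision.

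The members, lists and motifs were chosen with earlier results of these data known, so the opposite signs in the tumors are no independent support. Values on every array were given for members at least 2-fold apart in both tumors, those with the same sign in both, SREBP control and fatty acid genes, and outside the list for the 3 genes with the largest smaller-of-both-tumors difference and Nr1h3; Fdps, Idi1 and Tm7sf2 were added after seeing values. No protein sequences were compared. The labels pair the arrays of a tumor; deviations of same-tumor arrays from class means correlated at r = -0.66 over 18193 genes. Alternatives were the tumor or class as a block, a filter on dim probe sets, 2 normalizations, eBayes with trend, 2 ways to treat several probe sets, each array left out, and 1.5-fold as the limit; the use of extinction A and expansion B alone was chosen after seeing the data.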

Additional observations from a re-analysis of the deposited data

Results flagged for a closer look

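The clone difference had opposite directions in tumor A and tumor B, which with 1 array per class and tumor was not tested. Subtracting the difference in tumor B from the one in tumor A gave 2.09 on the log2 scale for the median of the 29 members. The same subtraction gave -0.10 for all named genes and 10.02 for the melanoma genes. By role this was 0.95 for the mevalonate steps, 3.30 for squalene to cholesterol, 1.96 for SREBP control and 2.47 for fatty acid synthesis. Among single genes at least 2-fold apart in both tumors this was 4.66 for Fasn, 4.32 for Dhcr7, 4.21 for Mvd and 4.17 for Lss. It was 4.04 for Fdft1, 3.98 for Sqle, 3.45 for Cyp51 and 3.43 for Msmo1. For Scd2 it was 3.22, for Insig2 3.09 and for Acaca 2.96. A large positive value follows from the rule that picked these genes. Tm7sf2, with differences of 2.92 and -0.64, did not meet that rule and is left out.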

How the results depend on the processing

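With the arrays of a tumor paired (replicate block), limma called 0 of 29 members and 0 of 45037 probe sets for the clone classes, as in the unpaired fit, and 128 probe sets had an unadjusted p under 0.05; with clone class as the block between tumors the counts were 0, 0 and 177. The block changed no call, and no other alternative gave one. The members' median clone difference lay between -0.51 and 0.91 with 1 array left out and their tumor difference between -0.9996 and 0.15. Mvk's clone difference ranged from -0.47 to 0.19 with 1 array left out, turning its sign. At 1.5-fold, 20 members were lower in expansion of tumor B and 20 were apart in both tumors (10.6% and 6.73% of all named genes). At 2-fold these were 13 and 11 (4.77% and 3.14%). Under the other alternatives the count in both tumors was between 10 and 12, opposite signs were seen in 25 to 27 members and the array order in 18 to 20. In the main setting, 28.6% of all named genes were higher in A and lower in B, and 8.49% had the array order.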
